A study of Mus musculus with 28 samples.

Results

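Sorted nuclei without neuronal fluorescence were compared between the colon and the small intestine of germ-free (GF) mice, which are raised without any microbes. The comparison took every library labelled GF and non-neuronal, 3 of colon and 3 of small intestine, which are 6 of the 28 libraries of the series. It covered the 18267 genes that passed a filter on low counts. All mice were C57BL/6 and had received AAV9-CaMKII-EGFPKASH in a vein 5 weeks earlier. This virus uses the CaMKII promoter, active in neurons, to express a green fluorescent protein held at the nuclear envelope. The longitudinal muscle layer was peeled off with the myenteric plexus, its nuclei were released, and nuclei with and without EGFP were collected separately. The virus, the strain and the GF state were therefore shared by the groups compared, and the gut segment differed. Specific pathogen-free (SPF) mice of the same strain, treated alike, gave 4 non-neuronal libraries per segment, which are used for comparison. The gate is set by the absence of EGFP, so nuclei of neurons that made no EGFP would also enter it. The labels give no age and do not tie libraries to separate animals, so p-values reflect only how much these libraries vary, and that variation may be technical.

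The muscle wall of the gut holds smooth muscle, interstitial cells of Cajal that pace its contractions, fibroblasts, glia, blood and lymphatic vessels and a mesothelial covering. Position along the gut is set in the embryo by transcription factors such as the Hox genes, whose posterior paralogues are active toward the hindgut. Lymphatic endothelium is known for secreting the chemokine CCL21, which guides immune cells into the vessels.

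Colonic libraries held 2505038 to 4408326 counts and small intestinal libraries 3930286 to 7321875. Small intestinal replicate 1 stood apart from the other 5 libraries. It lay at 237 on the first principal component, where the others lay between -102 and 20.8, and only 10491 of its genes reached 10 counts, against 12826 to 16472. Mitochondrially encoded genes took 35.6% of its counts, 13.4% and 23.7% of the counts of the other small intestinal libraries, and 4.64% to 10.8% of those of the colonic libraries. Levels are given below in CPM, counts scaled to a common library size, with TMM, a factor that corrects for differences in library composition. Markers of smooth muscle contraction summed to 11510 to 14270 CPM in colonic and 24390 to 43340 CPM in small intestinal libraries, so the labelled muscle wall was evident in all 6. Markers of enteric neurons were also present: the 14 markers, all tested and none at 0 in every library, summed to 806 to 1109 CPM in the colon and 251 to 444 CPM in the small intestine. Scaled by library totals, the same sums were 948 to 1495 and 158 to 283 CPM, against 5557 to 6480 CPM in the GF colonic neuronal libraries.

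At an adjusted p below 0.05, 130 of the 18267 genes (0.712%) were called, 40 (0.219%) higher and 90 (0.493%) lower in the colon. The genes higher in the colon included Ccl21a and Mmrn1 of the lymphatic markers, Hoxd9, Hoxd10 and Hoxd11, and the potassium channel gene Kcnq3. The genes lower in the colon included the smooth muscle myosin Myh11, the pacemaker channel Hcn4, the secretin receptor Sctr and mitochondrially encoded genes. At an unadjusted p below 0.05 there were 2009 genes. None of the 130 had overlapping libraries, while over all genes tested 10.2% lay wholly higher and 7.2% wholly lower in the colon. Scaling by library totals alone, which raises the median log2 fold change of all genes by 0.70, gave 68 higher and 27 lower, so 71.6% rather than 30.8% of calls were higher. Without small intestinal replicate 1, 52 genes were called, 9 higher and 43 lower, and 49 of the 52 were among the 130. Without colonic replicate 1, 2 or 3 the counts were 44, 48 and 47, and without small intestinal replicate 3 the count was 74. In nuclei taken in bulk, fewer cells of a type and less RNA per cell cannot be told apart.

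**Figure D1:**
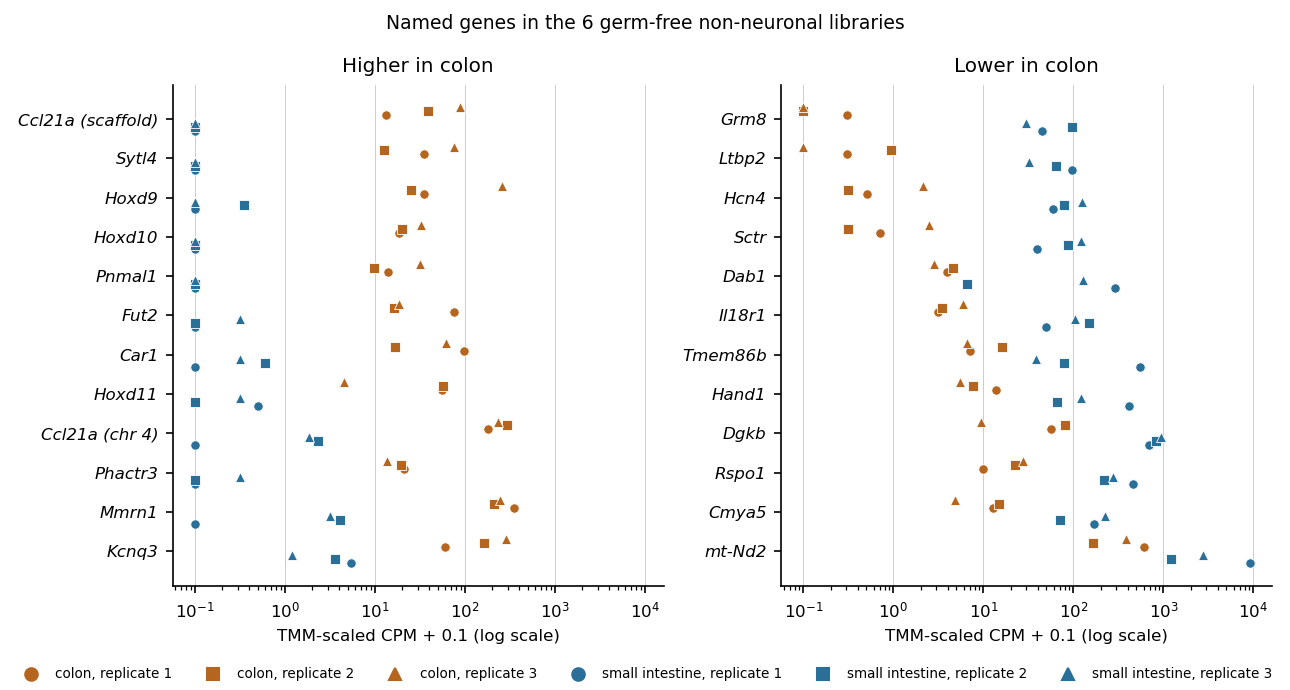
Level of the 24 genes chosen by a fixed rule (12 called genes of greatest increase, 12 of greatest decrease) in each library, as TMM-scaled CPM plus 0.1 on a log axis; points at 0.1 are at 0 CPM. In every gene the 3 colonic libraries lie wholly on one side of the 3 small intestinal libraries, most narrowly for Dab1.

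The posterior Hox genes that were tested had higher values in the colon. Of the 16 genes of paralogue groups 9 to 13, 9 were tested and 3 were called, all higher in the colon and all of the HoxD cluster on chromosome 2. Hoxd9 stood at 34.9, 24.8 and 255 CPM in the colonic libraries, and at 0, 0.245 and 0 CPM in those of the small intestine, where it had 1 count in all. Its log2 fold change (log2FC, colon over small intestine) was 9.77 (SE 1.70, edgeR adjusted p = 0.00396). Colonic replicate 3 was the highest by far, and without it the adjusted p was 0.156. Hoxd10 stood at 18.4, 19.7 and 32.6 CPM and had no count in the small intestine, which makes its colonic level at least 19.4-fold higher, taken against a floor of 3 counts per library (edgeR adjusted p = 0.0455). Hoxd11 stood at 55.1, 57.3 and 4.41 CPM against 0.405, 0 and 0.217 CPM (log2FC 7.46, SE 1.68, edgeR adjusted p = 0.0277). Here colonic replicate 3 was the lowest, the reverse of Hoxd9. Hoxd10 and Hoxd11 lie at chr2:74691924-74695105 and chr2:74679557-74687016 (GRCm38), and both overlap the transcript Gm28309 on the same strand. In the fits that left out 1 library in turn, Hoxd10 reached adjusted p values of 0.117 to 0.188 and was called in none, Hoxd11 in 1 of 6 and Hoxd9 in 5 of 6.

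The other 6 tested members of groups 9 to 13 had higher values in all colonic libraries than in any small intestinal library but were not called. Over all genes tested, 10.2% lay wholly higher in the colon. A gene near 0 in the small intestine could pass the low-count filter only through other libraries, which favours a positive value. Hoxa13 stood at 4.03, 5.09 and 5.43 CPM against no count in 3 libraries (at least 3.99-fold, edgeR adjusted p = 0.138). Hoxa9 stood at 30.7, 13.2 and 27.2 CPM against 0, 0 and 4.33 CPM (log2FC 3.95, SE 1.61, edgeR adjusted p = 0.348). The median log2 fold change of the 9 tested members was 7.46, or 3.95 with genes without a small intestinal count set at their bound, beside 0.03 for all genes. Of the 11 members of groups 5 to 8, all tested, none was called, and their median was -1.51, which was -0.78 without small intestinal replicate 1 and -0.66 by library totals. Hoxc8, for example, stood at 5.85, 2.33 and 0.340 CPM in the colon and at 112, 71.2 and 3.03 CPM in the small intestine (log2FC -4.42, SE 1.54, edgeR adjusted p = 0.254). The 10 tested members of groups 1 to 4 had a median of -0.69, and none was called. All 4 tested HoxC genes had negative values, from -4.42 to -3.09, while Hoxd3, Hoxd4 and Hoxd8 had values of 2.65, 6.21 and 2.52. No HoxC gene of groups 9 to 13 was tested. Scaled by library totals, Hoxc10 and Hoxc11 averaged 22.5 and 2.37 CPM in the colon against 0.170 and 0 CPM. Hoxc9 and Hoxc12 went the other way, at 0.133 and 0.0756 CPM against 3.545 and 0.291 CPM, and Hoxc13 had no count. In the neuronal libraries of the GF colon, Hoxd9 averaged 0.177 CPM scaled by library totals, against 124 CPM in the non-neuronal ones.

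**Figure D2:**
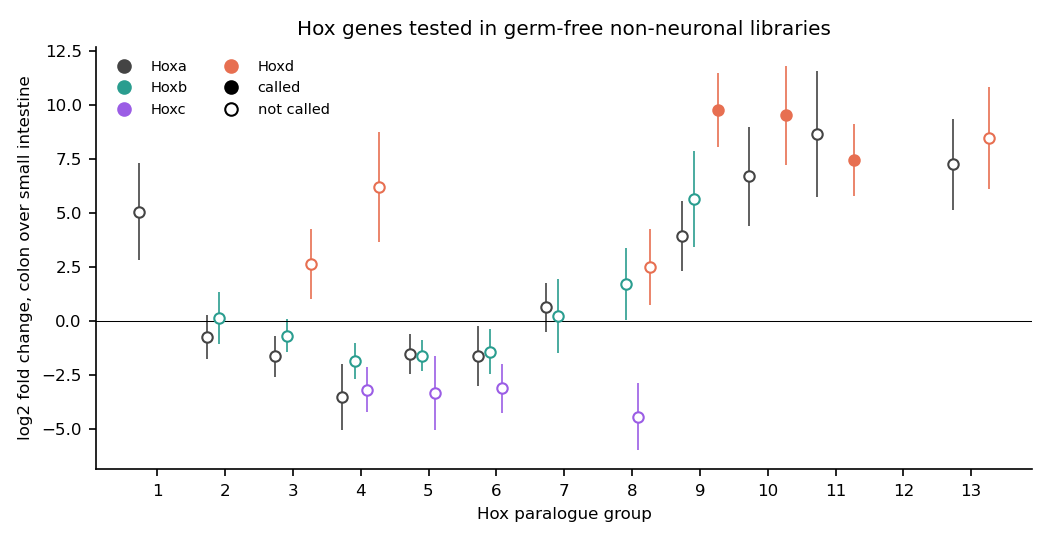
Log2 fold change of colon over small intestine for each tested Hox gene, with its SE, by paralogue group and cluster; filled points were called. All 9 tested genes of groups 9 to 13 lie above 0 (3.95 to 9.77), and 7 of the 11 genes of groups 5 to 8 lie below it. Genes near 0 in the small intestine could pass the low-count filter only through other libraries, which favours a positive value.

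Of the 12 lymphatic endothelial markers, all tested, 3 were called higher (Ccl21a, Mmrn1 and Reln), none lower, 10 had positive values, and the median log2 fold change was 2.99. Ccl21a on chromosome 4, the chemokine gene named above, stood at 179, 293 and 229 CPM in the colon and at 0, 2.21 and 1.73 CPM in the small intestine. The colonic level was 178-fold higher (log2FC 7.35, SE 0.83, edgeR adjusted p = 3.34e-05), and the gene was called under all 16 alternatives tried. A near-identical Ccl21a copy on an unplaced scaffold stood at 13.1, 38.6 and 88.3 CPM against no count (at least 38.4-fold higher in the colon, edgeR adjusted p = 0.0492), but it was called in none of the 6 leave-one-out fits (edgeR adjusted p = 0.102 to 0.289). The authors' expected counts can split reads between such copies, so the 6 Ccl21 entries were also summed. Together they held 203, 339 and 354 CPM in the colon and 0, 2.21 and 1.73 CPM in the small intestine. Mmrn1, which encodes the secreted glycoprotein multimerin, stood at 346, 208 and 245 CPM against 0, 3.93 and 3.03 CPM (log2FC 6.76, SE 1.34, edgeR adjusted p = 0.027). Reln, which encodes the secreted protein reelin, stood at 137, 179 and 164 CPM against 19.04, 3.93 and 5.63 CPM (log2FC 4.08, SE 0.95, edgeR adjusted p = 0.0343).

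The remaining lymphatic markers were less even. Flt4, the receptor for the lymphatic growth factor VEGF-C, stood at 79.7, 103 and 111 CPM against 14.6, 7.36 and 3.47 CPM (log2FC 3.54, SE 0.89, edgeR adjusted p = 0.0568). Lyve1, a hyaluronan receptor, stood at 528, 387 and 657 CPM against 101, 43.4 and 2.38 CPM (log2FC 3.43, edgeR adjusted p = 0.329). Prox1, the transcription factor that sets lymphatic identity, stood at 63.3, 94.4 and 36.7 CPM in the colon and at 0.405, 60.9 and 15.6 CPM in the small intestine, so the segments overlapped. The summed lymphatic markers ran from 1339 to 1506 CPM in the colon and from 90.4 to 399 CPM in the small intestine. Mmrn1 reached adjusted p values of 0.088 to 0.217 in the leave-one-out fits and was called in none, and Reln was called in 1 of 6. Of the 15 blood endothelial markers, 14 were tested and none was called, although all 14 had positive values (median 1.96). Kdr, a receptor for VEGF-A, stood at 17.8, 17.6 and 60.4 CPM against 1.22, 0 and 6.72 CPM (log2FC 3.56, SE 1.63, edgeR adjusted p = 0.418).

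**Figure D3:**
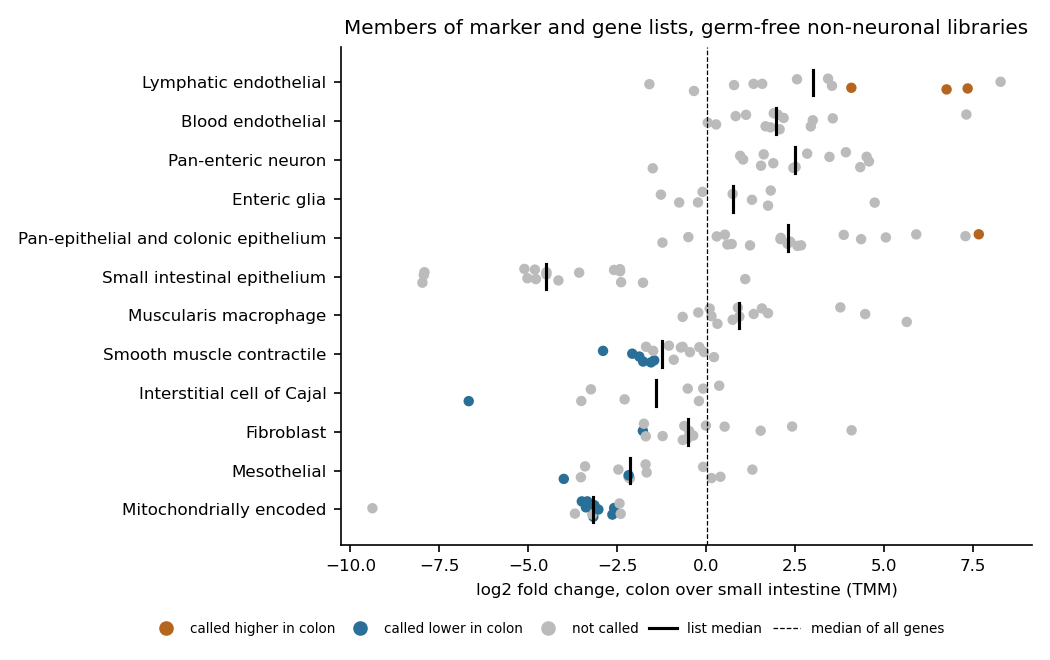
Log2 fold change of colon over small intestine for each tested member of 12 lists; black bars are list medians, the dashed line is the median of all genes (0.03), and coloured points were called. Lymphatic markers hold 3 genes called higher, and smooth muscle and mitochondrial lists hold 6 and 8 called lower.

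Epithelial transcripts were present in both segments. Of the 20 general and colonic epithelial markers, 19 were tested and 1 was called, Car1, higher in the colon (list median 2.29, or 4.18 without small intestinal replicate 3). Car1, a carbonic anhydrase of colonocytes, stood at 98.2, 16.3 and 61.5 CPM against 0, 0.491 and 0.217 CPM (log2FC 7.67, SE 1.73, edgeR adjusted p = 0.0287). Fut2, which adds terminal fucose to mucosal glycans, stood at 74.6, 15.9 and 18.3 CPM against 0, 0 and 0.217 CPM (log2FC 8.27, SE 1.89, edgeR adjusted p = 0.0316). Both genes were lowest in the same colonic library, replicate 2, and had 3 and 1 counts in the small intestine, so the size of their fitted change is uncertain. Muc2, the goblet cell mucin, was the most abundant marker of the list at 4204, 2109 and 4084 CPM in the colon and 216, 207 and 2003 CPM in the small intestine, and it was not called (log2FC 2.10, SE 1.02, edgeR adjusted p = 0.489). Of the 20 small intestinal epithelial markers, 17 were tested and none was called, with a median of -4.49, which was -1.76 without small intestinal replicate 3. Sis, the brush border sucrase-isomaltase, stood at 23.2, 21.4 and 3.06 CPM in the colon and at 113, 56.7 and 1183 CPM in the small intestine (log2FC -4.81, SE 1.34, edgeR adjusted p = 0.168). The summed small intestinal markers ran from 257 to 351 CPM in the colon and from 660 to 8349 CPM in the small intestine, the highest in replicate 3. The general and colonic markers summed to 2519 to 5547 CPM in the colon and 295 to 3182 CPM in the small intestine, and the part of such nuclei or RNA in Car1 and Fut2 was not tested. Car1 was called in 1 and Fut2 in none of the 6 leave-one-out fits.

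Among single genes called higher were the channel gene Kcnq3 and the receptor genes Oprk1 and Epha5, which form no list. None of the 13 tested enteric neurotransmitter and peptide genes was called, but 11 had positive values, with a median of 2.95. In 5 of them all colonic libraries lay above all small intestinal libraries, beside 10.2% of all genes tested. The list summed to 401 to 623 CPM in the colon and 39.7 to 97.4 CPM in the small intestine. Kcnq3, a subunit of the potassium channel that carries the M current, stood at 58.9, 162 and 281 CPM in the colon and at 5.27, 3.44 and 1.08 CPM in the small intestine. It was 51.3-fold higher (log2FC 5.70, SE 1.08, edgeR adjusted p = 0.00683) and was called under all 16 alternatives. Oprk1, the kappa opioid receptor, was nearly even across the colonic libraries at 83.1, 90.2 and 82.5 CPM, against 1.62, 4.91 and 1.3 CPM (log2FC 5.00, SE 1.23, edgeR adjusted p = 0.0492). Epha5, an ephrin receptor of axon guidance, stood at 106, 94.8 and 61.5 CPM against 0.405, 4.42 and 1.73 CPM (log2FC 5.27, SE 1.27, edgeR adjusted p = 0.0431). In the leave-one-out fits Epha5 was called in 1 and Oprk1 in none of 6.

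None of the 14 neuron markers was called, but 13 had positive values, with a median of 2.49. Snap25, a synaptic fusion protein, stood at 394, 368 and 258 CPM against 35.3, 80.0 and 26.9 CPM (log2FC 2.84, SE 1.21, edgeR adjusted p = 0.418). Ret, the receptor for glial cell line-derived neurotrophic factor, stood at 58.9, 71.3 and 55.0 CPM against 2.43, 5.40 and 0.217 CPM (log2FC 4.51, SE 1.16, edgeR adjusted p = 0.0652). The summed neuron markers, given above, moved with these genes, and their part in the calls was not tested. Scaled by library totals, 25 of the 40 genes higher in the colon had a higher mean in the neuronal than in the non-neuronal libraries of the GF colon. The 25 include all 11 called genes that lie inside a single gene, Kcnip4, described below. Kcnq3 averaged 1312 CPM in the neuronal and 205 CPM in the non-neuronal libraries of the colon. The lymphatic and HoxD genes did the opposite, with Mmrn1 at 0.276 CPM in the neuronal and 319 CPM in the non-neuronal colon. Among the 90 genes lower in the colon, 4 had a higher mean in the neuronal than in the non-neuronal small intestine. The matching shares over all genes tested were not computed, so neither count can be called unusual.

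A single stretch of chromosome 5 held 11 of the 40 genes higher in the colon, a pattern noticed after the values were seen. Kcnip4, which encodes a protein that binds voltage-gated potassium channels, spans chr5:48389502-49524907 on the minus strand (GRCm38), 1135406 bases. The annotation lists 30 other genes inside it, of which 27 were tested, and all 27 had positive values (2.20 to 9.05, median 5.55). Of these, 11 were called higher and none lower. Many of the 27 were near 0 in the small intestine and could pass the low-count filter only through other libraries, which favours a positive value. Without colonic replicates 1, 2 and 3 in turn, 4, 4 and 5 of the 11 kept the call, and without small intestinal replicates 1, 2 and 3, 3, 7 and 3 did. On the strand of Kcnip4 lie 10 of the 11 called and 23 of the 27 tested, and most carry the annotation TEC, a mark for transcripts still to be experimentally checked. The best supported, Gm43319, lies at chr5:48799010-48801279. It stood at 173, 142 and 159 CPM in the colon and at 0.810, 0.491 and 2.17 CPM in the small intestine, 137-fold apart (log2FC 7.01, SE 0.81, edgeR adjusted p = 3.34e-05), and it was called under all 16 alternatives. Gm42768 stood at 261, 225 and 82.5 CPM against 0.405, 8.10 and 3.25 CPM (log2FC 5.55, SE 1.15, edgeR adjusted p = 0.027), and it was called in 1 of 6 leave-one-out fits. Summed over the 27 genes, the colonic libraries held 1514, 1491 and 1286 CPM and the small intestinal libraries 36.1, 58.4 and 62.4 CPM, so the groups were far apart and even within themselves.

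Kcnip4 itself, counted over its exons, stood at 10.7, 48.8 and 11.2 CPM in the colon and at 12.2, 3.44 and 5.85 CPM in the small intestine. Its log2 fold change was 1.72 (SE 1.3, edgeR adjusted p = 0.692), and the segments overlapped. In the SPF libraries 10 of the 27 genes inside Kcnip4 were called higher in the colon. Gm43319 averaged 395 CPM in the neuronal and 191 CPM in the non-neuronal libraries of the GF colon, scaled by library totals, and 139 and 0.770 CPM in those of the small intestine. The sources used here do not say whether counting used the strand of the reads, and reads from introns of Kcnip4 and from genes on its strand cannot be told apart in any case.

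**Figure D4:**
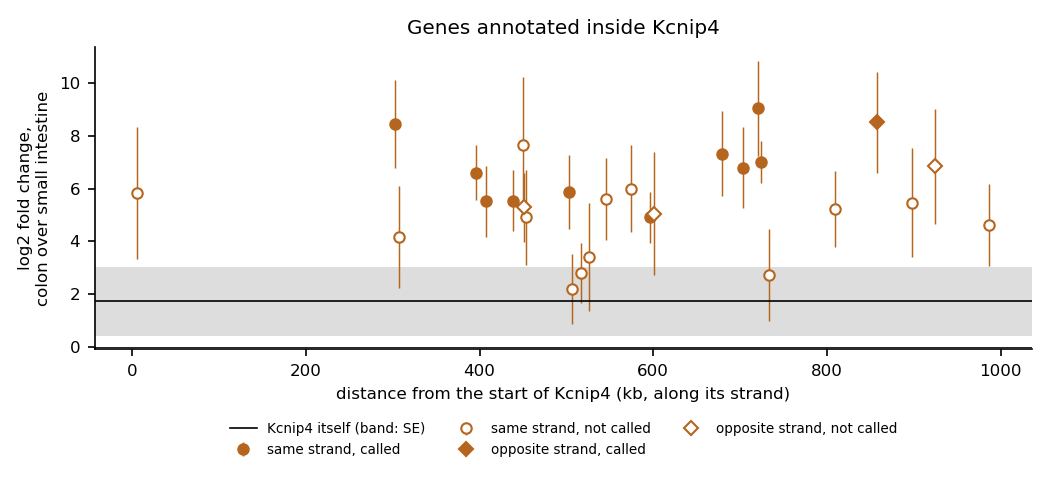
Log2 fold change of colon over small intestine, with its SE, for the 27 tested genes annotated inside Kcnip4, by distance from the start of Kcnip4 in kb along its strand; the line and band show Kcnip4 itself. All 27 lie above 0, and the 11 called genes fall between 303 and 858 kb. Genes near 0 in the small intestine could pass the low-count filter only through other libraries, which favours a positive value.

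The remaining genes named on the colonic side belong to no common list. Sytl4, or granuphilin, a Rab-binding protein of secretory granules, stood at 35.1, 12.5 and 75.4 CPM in the colon and had no count in the small intestine or in the neuronal libraries of the colon. Its level was at least 33.7-fold higher in the colon (edgeR adjusted p = 0.0318). Pnmal1, of the paraneoplastic antigen family, stood at 13.7, 9.55 and 31.2 CPM against no count (at least 15.0-fold, edgeR adjusted p = 0.0485). Phactr3, a regulator of protein phosphatase and actin, stood at 20.8, 19.1 and 13.6 CPM against 0, 0 and 0.217 CPM (log2FC 7.26, SE 1.77, edgeR adjusted p = 0.0483). All 3 genes lost the call whenever a library was left out, with adjusted p values up to 0.163, 0.179 and 0.199.

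Of the 16 contractile genes of smooth muscle, all tested, 6 were called lower (Myh11, Mylk, Cald1, Tpm2, Lmod1 and Smtn), none higher, and 15 had negative values (median -1.25). By library totals 1 of the 16 was called lower, and the median was -0.44. Relative to the median of all genes the list stood at -1.28 with TMM and -1.17 with library totals. Myh11, the myosin heavy chain of smooth muscle, was tightly grouped at 4156, 4337 and 3957 CPM in the colon and stood at 22950, 8962 and 20560 CPM in the small intestine. It was 4.21-fold lower (log2FC -2.08, SE 0.29, edgeR adjusted p = 5.96e-04) and was called under all 16 alternatives. Mylk, the kinase that starts contraction by phosphorylating myosin light chain, stood at 891, 1063 and 1076 CPM against 4607, 2373 and 4149 CPM (log2FC -1.88, SE 0.29, edgeR adjusted p = 0.00112). Lmod1, which nucleates actin filaments, stood at 49.0, 70.0 and 12.2 CPM against 383, 129 and 468 CPM (log2FC -2.90, SE 0.63, edgeR adjusted p = 0.0218).

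Not all of the contractile apparatus moved in this way. Actg2, the enteric smooth muscle actin, stood at 632, 802 and 600 CPM in the colon and at 565, 696 and 485 CPM in the small intestine (log2FC 0.22, SE 0.35, edgeR adjusted p = 0.892). Acta2, the actin shared with vascular smooth muscle, had a log2 fold change of -0.45 (SE 0.34, edgeR adjusted p = 0.689), and Cnn1, or calponin, of -0.06 (SE 0.43, edgeR adjusted p = 0.98). Acta2, Myl9, Des, Tagln and Cnn1, with Actg2, had positive values when scaled by library totals, which move all genes up. Of the 6 called genes, 3, 5 and 2 kept the call without colonic replicates 1, 2 and 3, and 3, 6 and 3 without small intestinal replicates 1, 2 and 3. Other called genes of muscle, picked after their values were seen, were Ppp1r12a, the myosin phosphatase targeting subunit (1424, 1544 and 1465 CPM against 7387, 4512 and 6432 CPM, edgeR adjusted p = 1.36e-04), and Myom1, the M-band protein myomesin. Myom1 stood at 608, 773 and 540 CPM against 2522, 2152 and 2870 CPM (log2FC -1.97, SE 0.31, edgeR adjusted p = 0.00112).

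Smooth muscle genes are classically driven by serum response factor and myocardin through a short element, the CArG box. The search pattern for this box is the same on both strands, although a single box need not read alike on both. The box was searched for in the RefSeq promoter table (GRCm38.p6, 300 bases per gene, from 250 before to 50 after the start). It was found in 488 of 27025 genes (1.81%), in 2 of the 58 matched genes lower in the colon, in 1 of the 15 matched genes higher in the colon, and in 2 of the 12 matched contractile genes. The 250 bases before the start are shown for a gene of each kind: Myom1, called lower, Myl9, a myosin light chain of the contractile list that was not called, and Fhl1, a muscle LIM protein called higher (picked, like Myom1, after its values were seen). Capitals mark the CArG box, all 3 genes lie on the plus strand, and the windows are chr17:71019307-71019556, chr2:156775214-156775463 and chrX:56779433-56779682.
Myom1: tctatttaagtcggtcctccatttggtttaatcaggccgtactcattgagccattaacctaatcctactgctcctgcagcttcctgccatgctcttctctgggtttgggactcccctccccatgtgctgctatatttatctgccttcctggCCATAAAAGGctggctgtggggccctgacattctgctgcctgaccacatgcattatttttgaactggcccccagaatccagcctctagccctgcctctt
Myl9: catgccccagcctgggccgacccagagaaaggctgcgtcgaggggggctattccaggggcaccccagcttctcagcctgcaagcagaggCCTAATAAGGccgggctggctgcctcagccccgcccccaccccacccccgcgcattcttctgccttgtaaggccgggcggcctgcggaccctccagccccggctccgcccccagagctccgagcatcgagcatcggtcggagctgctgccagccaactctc
Fhl1: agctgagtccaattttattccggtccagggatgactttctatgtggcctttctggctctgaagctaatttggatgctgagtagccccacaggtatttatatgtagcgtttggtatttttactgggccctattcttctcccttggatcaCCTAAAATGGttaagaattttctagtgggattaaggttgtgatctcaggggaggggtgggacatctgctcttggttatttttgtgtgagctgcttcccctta
The box starts 99 bases before the start of Myom1, 161 before that of Myl9 and 102 before that of Fhl1. Fhl1 stood at 223, 312 and 266 CPM in the colon and at 88.7, 69.7 and 29.5 CPM in the small intestine (log2FC 2.09, SE 0.43, edgeR adjusted p = 0.0133), the opposite direction to Myom1. Myl9 stood at 236, 225 and 208 CPM against 503, 287 and 305 CPM (log2FC -0.71, SE 0.39, edgeR adjusted p = 0.518).

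Among receptors and channels, several genes of the small intestine were near 0 in the colon. Hcn4, a hyperpolarization-activated pacemaker channel, stood at 0.403, 0.212 and 2.04 CPM in the colon (9 counts in all) and at 58.7, 79.3 and 125 CPM in the small intestine. It was 99.3-fold lower in the colon (log2FC -6.67, SE 1.22, edgeR adjusted p = 0.00508). Sctr, the receptor for the hormone secretin, stood at 0.605, 0.212 and 2.38 CPM against 38.9, 86.4 and 122 CPM (log2FC -6.31, SE 1.18, edgeR adjusted p = 0.00643). Both genes were lowest in colonic replicate 2 and highest in small intestinal replicate 3. Without colonic replicate 1 or 2 neither was called, with adjusted p values up to 0.0734 and 0.0759. Grm8, a metabotropic glutamate receptor, had 1 count in the colon and stood at 44.2, 95.2 and 29.3 CPM in the small intestine (log2FC -9.01, SE 1.50, edgeR adjusted p = 0.00256). Dgkb, a diacylglycerol kinase, was abundant in the small intestine at 692, 836 and 928 CPM against 56.3, 79.8 and 9.17 CPM (log2FC -4.08, SE 0.59, edgeR adjusted p = 9.80e-04). Grm8 and Dgkb were called under all 16 alternatives.

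Hcn4 was the only called gene among the 8 markers of interstitial cells of Cajal, of which 7 had negative values (median -1.40, or -0.41 without small intestinal replicate 3). Kit, the receptor that defines these cells, stood at 182, 73.8 and 178 CPM in the colon and at 153, 160 and 147 CPM in the small intestine (log2FC -0.08, SE 0.60, edgeR adjusted p = 0.98). Ano1, their calcium-activated chloride channel, stood at 102, 99.7 and 153 CPM against 146, 159 and 202 CPM (log2FC -0.52, SE 0.56, edgeR adjusted p = 0.822). The markers summed to 368 to 586 CPM in the colon and 624 to 830 CPM in the small intestine. Il18r1, a subunit of the receptor for interleukin 18, stood at 3.03, 3.40 and 5.77 CPM against 49.0, 149 and 103 CPM (log2FC -4.63, SE 1.03, edgeR adjusted p = 0.0263), and it was called in 1 of 6 leave-one-out fits.

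Of the 13 mesothelial markers, all tested, 2 were called lower (Rspo1 and Muc16), none higher, 3 had positive values, and the median was -2.14. Rspo1, a secreted enhancer of Wnt signalling, stood at 9.88, 22.5 and 27.2 CPM against 457, 219 and 276 CPM (log2FC -4.0, SE 0.71, edgeR adjusted p = 0.00396). Muc16, a membrane mucin of the mesothelium, stood at 836, 374 and 774 CPM against 4332, 2362 and 2288 CPM (log2FC -2.18, SE 0.37, edgeR adjusted p = 0.0031). Both were called under all 16 alternatives. Msln, the mesothelial antigen mesothelin, stood at 5.45, 6.58 and 37.4 CPM against 71.3, 44.2 and 41.4 CPM (log2FC -1.67, edgeR adjusted p = 0.652). Summed, the mesothelial markers ran from 489 to 1023 CPM in the colon and from 2853 to 5353 CPM in the small intestine, and their part in other calls was not tested.

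Ltbp2, which binds the microfibrils of elastic fibres, had 5 counts in the colon and stood at 97.2, 64.5 and 32.1 CPM in the small intestine (log2FC -7.31, SE 1.35, edgeR adjusted p = 0.00523). It was called in 5 of 6 leave-one-out fits and had an adjusted p of 0.0702 without colonic replicate 1. Of the 14 fibroblast markers, all tested, 1 was called, Col1a1, a chain of type I collagen, at 210, 184 and 116 CPM against 470, 500 and 779 CPM (log2FC -1.78, SE 0.39, edgeR adjusted p = 0.0233). Col1a1 kept the call in 2 of 6 leave-one-out fits, was lost without each colonic library and without small intestinal replicate 3 (edgeR adjusted p up to 0.222), and was not called by library totals. The median of the fibroblast list was -0.50, but it turned to 0.37 by library totals and to 0.10 without small intestinal replicate 1, so the list had no stable direction. Hand1, a transcription factor of the gut mesenchyme, stood at 13.5, 7.64 and 5.43 CPM against 412, 65.8 and 120 CPM (log2FC -4.48, SE 0.85, edgeR adjusted p = 0.00684). It was highest in small intestinal replicate 1, without which its adjusted p was 0.112. The call of Hand1 was also lost without colonic replicate 2 or 3 and by library totals (edgeR adjusted p = 0.0604, 0.0696 and 0.0517).

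Cmya5, or myospryn, a scaffold protein of muscle, stood at 12.5, 14.9 and 4.75 CPM against 169, 70.7 and 225 CPM (log2FC -3.84, SE 0.87, edgeR adjusted p = 0.0287), and it was called in 1 of 6 leave-one-out fits (edgeR adjusted p up to 0.21) and not by library totals. Dab1, the adaptor through which cells respond to reelin, stood at 3.83, 4.46 and 2.72 CPM in the colon and at 293, 6.38 and 127 CPM in the small intestine. Small intestinal replicate 2 lay close to the colonic libraries, and without replicate 1 the adjusted p rose from 0.0318 to 0.394. Dab1 was called in 1 of 6 leave-one-out fits. Tmem86b, an enzyme that hydrolyses lysoplasmalogen, stood at 7.06, 15.9 and 6.45 CPM against 548, 78.8 and 38.6 CPM, and was called in 2 of 6 leave-one-out fits. Its edgeR adjusted p rose from 0.0436 to 0.62 without small intestinal replicate 1. Of the 24 genes named by rule, 11 kept their call without that library, 3 of those higher in the colon (Hoxd9, Ccl21a of chromosome 4 and Kcnq3) and 8 of those lower.

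Genes of the mitochondrial genome had lower values in the colon. The libraries were made from sorted nuclei, and how much RNA from outside the nucleus was carried over in each segment was not tested. All 13 were tested, 8 were called lower, none had a positive value, and the median was -3.17. The subunit of respiratory complex I encoded by mt-Nd2 stood at 609, 165 and 387 CPM in the colon and at 9076, 1226 and 2763 CPM in the small intestine (log2FC -3.49, SE 0.64, edgeR adjusted p = 0.0219). For mt-Cytb, the cytochrome b of complex III, the levels were 3138, 1268 and 2071 CPM against 42700, 7030 and 17620 CPM (log2FC -3.38, SE 0.57, edgeR adjusted p = 0.0206). Small intestinal replicate 1 was the highest and replicate 2 the lowest of its group for both. The nuclear RNA Malat1 was lower in the colon by a smaller step, at 30600, 30390 and 32210 CPM against 72430, 45530 and 53080 CPM (log2FC -0.88, SE 0.19, edgeR adjusted p = 0.0196), and by library totals its value was -0.08. Without small intestinal replicate 1, 6 of the 13 mitochondrial genes were called lower, their median was -2.26, mt-Nd2 had a value of -2.35, and Malat1 was not called (edgeR adjusted p = 0.171). Malat1 was also not called when each colonic library was left out in turn (edgeR adjusted p = 0.111, 0.0834 and 0.088) or by library totals. The call of mt-Nd2 was lost without colonic replicates 2 and 3 and small intestinal replicate 3 (edgeR adjusted p = 0.0656, 0.187 and 0.058). Of the 8 called mitochondrial genes, 3, 1 and 1 kept the call without colonic replicates 1, 2 and 3, and 5, 8 and 3 without small intestinal replicates 1, 2 and 3. A fit with the mitochondrial genes removed called 117 genes, all of them among the 130.

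Genes of cholesterol synthesis had higher values in the colon without passing the test. Of the 14, all tested, none was called, 13 had positive values, and the median was 1.74. In 8 all colonic libraries lay above all small intestinal libraries. Over all genes tested, 50.7% had positive values and 10.2% lay wholly higher in the colon. Sqle, the squalene epoxidase of the pathway, stood at 101, 96.5 and 100.2 CPM against 27.6, 23.6 and 29.5 CPM (log2FC 1.88, SE 0.75, edgeR adjusted p = 0.332).

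The same contrast in SPF mice asked whether the segment differences depended on the GF state. In SPF libraries 199 genes were called (1.09%), 102 higher (0.558%) and 97 lower (0.531%) in the colon. Of the 40 genes higher in the GF colon, 21 were also called higher in SPF (52.5% of the GF and 20.6% of the SPF calls), and all 40 had a positive value there. Of the 90 lower genes, 41 were also called lower in SPF (45.6% and 42.3%), and 88 had a negative value. The GF and SPF libraries are separate samples, but both contrasts share 1 fit and its estimate of spread. Hcn4 had log2 fold changes of -6.67 in GF and -9.05 in SPF, Sctr of -6.31 and -9.08, and Hoxd9 of 9.77 and 8.70. Rspo1 had values of -4.0 in GF and -0.73 in SPF, and the difference of -3.27 did not pass the test (edgeR adjusted p = 0.481).

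**Figure D5:**
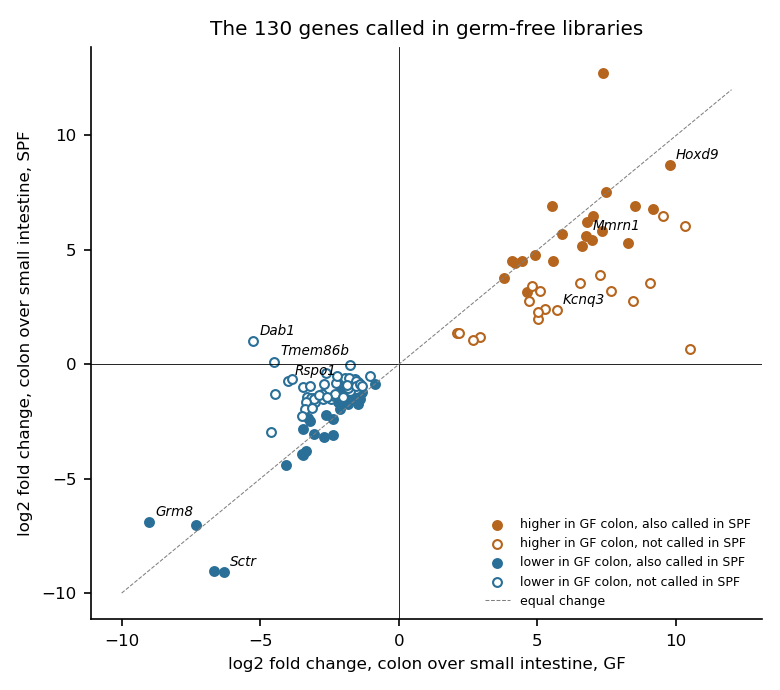
Log2 fold change of colon over small intestine in SPF (vertical) against GF libraries (horizontal) for the 130 genes called in GF; filled points were also called in SPF, and the dashed line marks equal change. All 40 genes higher in the GF colon lie above 0 in SPF, and 2 of the 90 lower genes, Dab1 and Tmem86b, lie above 0.

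The difference between the GF and SPF segment contrasts was tested directly. No gene passed edgeR's test (lowest adjusted p = 0.425), with 1243 genes at an unadjusted p below 0.05. DESeq2 called 61, the fit without a low-count filter 36 and the replicate block 1. The 5 named genes of lowest p were Tmem35b, Lats2, Kmt5a, Dab1 and Ecm1, each with a negative value in GF and a positive one in SPF. Lats2, a kinase of the Hippo pathway, stood at 63.9, 60.1 and 52.6 CPM in the GF colon and at 196, 207 and 218 CPM in the GF small intestine. Its mean was 79.8 CPM in the SPF colon and 17.3 CPM in the SPF small intestine. The segment log2 fold change of Lats2 was -1.81 (SE 0.62) in GF and 2.20 (SE 0.55) in SPF, a difference of -4.01 (SE 0.83, edgeR adjusted p = 0.425), which does not pass the threshold. Tmem35b had -3.83 (SE 1.47) in GF and 7.52 (SE 1.64) in SPF, a difference of -11.35 (SE 2.26, edgeR adjusted p = 0.425). Ecm1, a secreted matrix protein, had -2.69 (SE 0.68) in GF and 1.00 (SE 0.56) in SPF, a difference of -3.70 (edgeR adjusted p = 0.481).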

How the data were processed

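Nuclear RNA was amplified and sequenced as single-end reads. The authors deposited expected counts per gene (RSEM 1.3.0, STAR 2.5.2, DESeq2 1.10.1 and GRCm38 are named, without roles, in the submitters' processing notes); 7.478% of values were not whole, and they were rounded. Symbols came from GENCODE M21, matched for 51719 of 51912 genes; the 193 others held 0.1022% of counts. The main test was edgeR 4.0.16 (quasi-likelihood, TMM, filter by group, two-sided, Benjamini-Hochberg) on the 14 non-neuronal libraries, with a mean per group. SE was taken from the size of the log2 fold change and the root of its F statistic. Folds are ratios of mean CPM; the floor of 3 counts, up to 1.02 CPM in the colon and 1.22 in the small intestine, covers counting error only. Named genes were 12 called genes of greatest increase and 12 of greatest decrease, at 5 CPM or more in the higher group, without overlap and with a named symbol, plus the 5 of lowest p for the GF and SPF difference, list members as examples, and genes marked as picked later. Of the 24, 13 overlap another gene. Comparison, members and 46 lists were chosen with earlier results of these data known. The script was tested on simulated data, with 50 genes changed between the GF segments at each fold. It called 0% of them at 2-fold, 0% at 4-fold, 18% at 8-fold and 34% at 16-fold, and 2 unchanged genes. The changed genes were drawn at random from those with a mean of 5 CPM or more, so the rates are averages over such genes. A gene that was not called may therefore still differ by a large factor. In the data, some abundant genes, such as Malat1 and Mylk, were called at changes below 4-fold. Same-numbered libraries were not treated as pairs. DESeq2 1.42.0 and limma 3.58.1 served as alternatives. Results for a few genes are not reported here.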

Additional observations from a re-analysis of the deposited data

How the results depend on the processing

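No gene among the 130 changed sign under any of the 16 alternatives. The total of 130 became 543 with DESeq2 (327 higher, 216 lower), 309 with all 28 libraries (220 higher), 303 without a low-count filter (122 and 181), 232 with limma-voom (69 and 163) and 76 with only the 6 GF libraries (35 and 41). Library totals alone gave 68 higher and 27 lower. Leaving out 1 library gave 44 to 163 calls, 9 to 47 higher and 32 to 116 lower: 44, 48 and 47 without colonic replicates 1, 2 and 3, and 52, 163 and 74 without small intestinal replicates 1, 2 and 3. Of the 40 higher genes 4, and of the 90 lower genes 12, were called under every alternative. The replicate block gave 207 calls (84 and 123), of which 125 were among the 130. Deviations of same-numbered libraries correlated at 0.0092, 0.0855 and 0.0308, and those of differently numbered libraries at -0.0576 to 0.0155. Such weak correlations cannot decide whether the numbers pair the libraries. For the GF and SPF difference the block gave 1 call, DESeq2 61 and no filter 36, against 0 in edgeR, and leaving out 1 library gave 0. The fibroblast median turned from -0.50 to 0.37 by library totals and to 0.095 without small intestinal replicate 1 (-0.648 to 0.095 over the 6 libraries left out). The causes were not tested. Genes under the floor of 3 counts in every library of a segment have no measurable level there. Those without any count in the segment were given a bound. Others, such as Hoxd9, Hoxd11, Fut2, Phactr3 and Grm8, kept a fitted value, whose size is uncertain.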
